A study of Arabidopsis thaliana with 6 samples.

Results

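The genes described here are 39 Arabidopsis loci known for their induction by low oxygen, out of 33602 loci in the count files. They were listed by locus for what they are known to do: fermentation, sugar supply, oxygen sensing, haemoglobin, and proteins of unknown function that hypoxia induces. The list was drawn up with earlier results of the same vil1-1 against Col-0 comparison in view, so the counts below describe these genes and are no independent evidence about them as a group. RNA came from whole 1-day-old seedlings of Col-0, the wild type, and of vil1-1, a mutant line of VIL1, with 3 libraries of each genotype. Seeds of both genotypes were stratified for 3 days at 4 °C in darkness and germinated on plates at 22 °C with 16 h of light and 8 h of dark. No low-oxygen treatment is named in the labels for either genotype, and vil1-1 is a single mutant line. All 39 loci were found in every count file, in the authors' deposited table of vil1-1 against Col-0, and in the RefSeq annotation of TAIR10.1.

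In plants, oxygen is sensed through group VII ethylene response factors. Plant cysteine oxidases use oxygen to mark these transcription factors for destruction by the N-degron pathway, so that under hypoxia the factors persist and switch on a core set of genes. Among those genes, pyruvate decarboxylase and alcohol dehydrogenase carry out ethanolic fermentation, which regenerates NAD+ for glycolysis when respiration is limited, and sucrose synthase feeds sugar into it. VIL1 is a PHD finger protein related to VIN3 that acts with Polycomb repressive complex 2. VIN3 is itself known to respond to low oxygen, and the Polycomb subunit VRN2 is known as an N-degron substrate.

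Library totals ran from 46917 to 66546 counts and 7799 to 9015 genes were detected per library. A single count was worth 15.0 to 21.3 CPM (counts scaled to a total of 1000000). A count of 0 allowed a level of up to 45.1 to 63.9 CPM. VIL1 had no count in any of the 6 libraries, so the genotype labels could not be checked from them. VIL1 fell in the authors' deposited table (log2 fold change -0.91, adjusted p = 0.000309). The 8 markers of whole seedlings had a summed level of 10580.3 to 11330.5 CPM over the Col-0 libraries and 13150.9 to 14375.3 CPM over those of vil1-1. Most of it was ICL (isocitrate lyase), MLS (malate synthase) and RBCS1A (Rubisco small subunit). ICL alone ran from 5344.4 to 6221.3 CPM in Col-0 and from 7950.2 to 9367.6 CPM in vil1-1. The root hair markers PRP3 and COBL9 had at most 1 count in any library. In bulk seedlings, a change in the number of cells of a type and a change in RNA per cell cannot be told apart.

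At this depth 17 of the 39 genes had at least 12 counts over the 6 libraries, 17 had 1 to 11, and 5 had none: SUS1, NIP2;1, AT5G45960, AT5G10040 and AT5G42200. Of the 17 genes with at least 12 counts, 6 had every vil1-1 library above every Col-0 library and 11 overlapped. Among all 3888 genes with that many counts, 6.28% were separated in that direction. The minimum was summed over both genotypes, so a gene could reach it through the genotype where it is high. AT1G33055, among the 6, did so, with 13 of its 15 counts in vil1-1. None of the 17 had every vil1-1 library below Col-0, against 6.76% of the 3888. With edgeR's default filter on low counts its quasi-likelihood test covered 6 of the 39 genes. Of these, 4 rose in vil1-1 at a Benjamini-Hochberg adjusted p under 0.05: AT3G03270, AT4G27450, SAD6 and AT4G33560. SAD6 and AT4G33560 met this filter only through their vil1-1 libraries, where they were higher. Their entry into the test thus depended on the difference tested, and 4 of 6 is no measure of how often members rose. Calls by edgeR over all 942 genes tested numbered 35 (3.72%), with 26 (2.76%) up and 9 (0.955%) down in vil1-1, and 19 in all without vil1-1 replicate 2. AT3G03270 and AT4G27450 alone of the members were also called by DESeq2 and by edgeR without a filter on low counts, which tested 34 members. A looser filter, asking 3 libraries to exceed 1 CPM, let edgeR test 25 members, of which 4 were called. Under the default filter, none of the 6 members tested was called lower by edgeR, DESeq2 or limma-voom. Nor did any of the 6 fall at an unadjusted p under 0.05 in these 3 tests. In either direction, edgeR had 4 of the 6, all higher, and 118 of the 942 genes at an unadjusted p under 0.05. The other 33 members were not tested under that filter.

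AT3G03270, annotated as an adenine nucleotide alpha hydrolase-like protein of the universal stress protein kind, was the most abundant of the 39 in the count files. Its gene lies on chromosome 3 from 761004 to 763369 on the minus strand. It had 741, 830 and 1007 counts in Col-0 against 1002, 1152 and 1417 in vil1-1, or 15163.3, 12472.6 and 15599.3 CPM against 21356.9, 23347.7 and 22384.4 CPM. All 3 vil1-1 libraries lay above all Col-0 libraries. The means were 14411.7 ± 1693.5 CPM in Col-0 against 22363.0 ± 995.6 CPM in vil1-1 (SD, n = 3), and edgeR gave a log2 fold change of 0.66 (SE 0.11, adjusted p = 1.28e-05).

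AT4G27450, annotated as an aluminium-induced protein with YGL and LRDR motifs, showed the smallest edgeR adjusted p of the 6 genes tested. It lies on chromosome 4 from 13727370 to 13729002 on the minus strand. Its counts were 16, 25 and 29 in Col-0 and 44, 48 and 71 in vil1-1. The lowest vil1-1 library, at 937.8 CPM, was above the highest Col-0 library, at 449.2 CPM. Group means were 384.1 ± 61.3 and 1010.7 ± 97.6 CPM (SD, n = 3), with an edgeR log2 fold change of 1.41 (SE 0.22, adjusted p = 6.9e-06). Its end overlaps AT4G27440, a protochlorophyllide oxidoreductase gene on the other strand, over 71 bases. That neighbour had 10, 9 and 10 counts in Col-0 against 5, 5 and 9 in vil1-1, and was not higher in vil1-1.

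SAD6 encodes a stearoyl-ACP desaturase, an enzyme that puts a double bond into fatty acids in plastids. It lies on chromosome 1 from 16577521 to 16579722 on the plus strand. SAD6 had 8, 8 and 7 counts in Col-0 against 17, 18 and 20 in vil1-1, with no overlap in CPM. Its means were 130.8 ± 29.1 and 347.7 ± 27.5 CPM (SD, n = 3), and the edgeR log2 fold change was 1.44 (SE 0.36, adjusted p = 0.00901). With Col-0 replicate 3 left out the edgeR adjusted p was 0.0522, and with vil1-1 replicate 2 left out it was 0.0569. AT4G33560, annotated as a wound-responsive family protein on chromosome 4 from 16135157 to 16135921, had 7, 5 and 5 counts in Col-0 against 11, 14 and 23 in vil1-1. Here too the groups were separate, and vil1-1 replicate 3 was highest. The means were 98.6 ± 38.7 and 293.8 ± 65.0 CPM (SD, n = 3), with an edgeR log2 fold change of 1.67 (SE 0.4, adjusted p = 0.00516). Without vil1-1 replicate 3 the edgeR adjusted p was 0.245, and without Col-0 replicate 2 it was 0.0626.

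**Figure D1:**
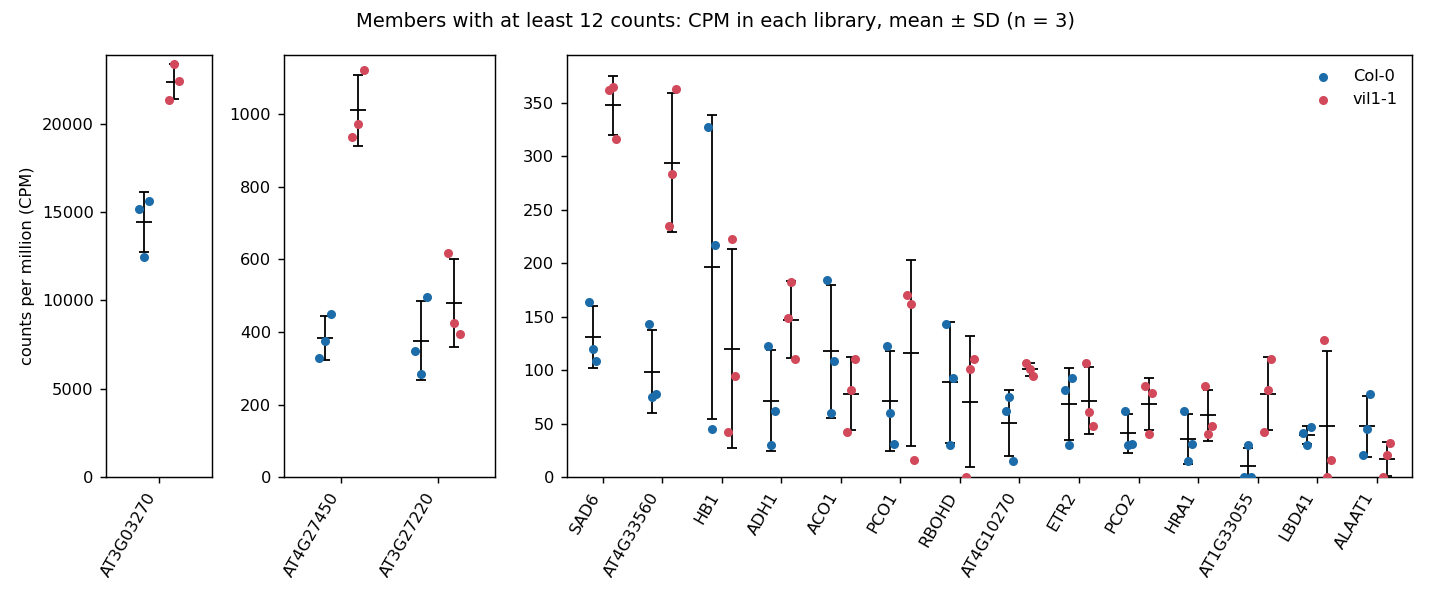
CPM of the 17 genes with at least 12 counts, on 3 linear scales: each point is 1 library (blue Col-0, red vil1-1), and bars give the mean ± SD of 3 libraries. The red points lie wholly above the blue ones for AT3G03270, AT4G27450, SAD6, AT4G33560, AT4G10270 and AT1G33055.

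The promoters of these genes can be read beside the values. Group VII factors are known to act through a promoter element with the core AAACCA, and the same letters stand in the anaerobic response element of ADH1. Shown are the 250 bases before the start of 3 genes called by edgeR and of ADH1 and PDC1, the pair of ethanolic fermentation genes that rose in the authors' deposited table, from the RefSeq genome TAIR10.1. Each runs 5′ to 3′ on the gene's strand, and capitals mark AAACCA or its reverse complement TGGTTT. The window of AT4G33560 runs into its neighbouring gene and is not printed.
AT3G03270, chr3:763370-763619, minus strand: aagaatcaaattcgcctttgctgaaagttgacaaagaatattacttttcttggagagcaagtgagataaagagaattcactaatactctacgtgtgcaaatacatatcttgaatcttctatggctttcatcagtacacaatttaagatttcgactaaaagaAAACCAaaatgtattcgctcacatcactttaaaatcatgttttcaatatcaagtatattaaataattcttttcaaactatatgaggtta
AT4G27450, chr4:13729003-13729252, minus strand: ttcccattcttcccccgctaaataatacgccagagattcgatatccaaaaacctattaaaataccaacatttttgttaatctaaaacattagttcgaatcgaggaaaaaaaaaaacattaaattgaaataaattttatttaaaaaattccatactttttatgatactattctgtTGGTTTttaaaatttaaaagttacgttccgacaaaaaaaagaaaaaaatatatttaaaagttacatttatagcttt
SAD6, chr1:16577271-16577520, plus strand: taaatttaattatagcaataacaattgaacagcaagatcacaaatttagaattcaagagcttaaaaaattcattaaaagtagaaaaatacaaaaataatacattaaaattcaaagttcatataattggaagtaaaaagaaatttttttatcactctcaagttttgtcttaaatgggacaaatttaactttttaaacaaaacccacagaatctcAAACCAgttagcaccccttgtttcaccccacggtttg
ADH1, chr1:28975005-28975254, plus strand: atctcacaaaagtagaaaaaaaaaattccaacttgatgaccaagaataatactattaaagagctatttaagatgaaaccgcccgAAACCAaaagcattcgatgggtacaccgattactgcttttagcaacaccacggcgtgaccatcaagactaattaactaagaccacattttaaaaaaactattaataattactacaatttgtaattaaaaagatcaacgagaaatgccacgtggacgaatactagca
PDC1, chr4:15954804-15955053, minus strand: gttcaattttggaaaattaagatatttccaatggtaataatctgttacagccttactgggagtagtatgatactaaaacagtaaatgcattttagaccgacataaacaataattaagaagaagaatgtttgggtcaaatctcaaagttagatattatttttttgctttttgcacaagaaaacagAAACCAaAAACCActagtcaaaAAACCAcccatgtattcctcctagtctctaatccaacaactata
The motif stood at -89 in AT3G03270, -76 in AT4G27450, -37 in SAD6, -183 in AT4G33560 and -166 in ADH1, counted from the annotated start. PDC1 had 3 copies, at -66, -59 and -44. These windows were chosen for the genes' values, so their matches are no test. Over all members, AAACCA on either strand was found in the 250 bases before to 50 after the start of 19 of 39 genes (48.7%). The exact 95% binomial interval of this share was 32.4% to 65.2%, against 31.8% of the 24921 genes of the table with such a window. In the 250 bases before the start alone it was found in 14 of 39 (35.9%, interval 21.2% to 52.8%), against 27.2%. The motif was in the longer window of 13 of the 24 members that rose in the authors' deposited table (54.2%, interval 32.8% to 74.4%). It was in that of 6 of the other 15 (40.0%, interval 16.3% to 67.7%), and these intervals overlapped widely. Of the 6 oxygen sensing genes and regulators, 2 held it in the longer window (33.3%) and 0 in the 250 bases before the start alone. ACGTG, the core of the abscisic acid response element, was in the longer window of 9 of 39 members (23.1%) and of 27.0% of all genes. CACGTG, which holds ACGTG on both strands, was in 4 members (10.3%) and in 8.03% of all genes.

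The authors' deposited table reaches far below the count files and lists 25005 genes, with no value per library. Benjamini-Hochberg adjustment of its p-values over all its genes was added here. Its F test p-values lie very close to those of a chi-square with 1 degree of freedom, as for HB1 (F 19.1, p = 1.24e-05). In such p-values a gene's own spread between libraries counts for little or nothing. A call in the authors' deposited table, however small its p, thus does not show that a change held in single libraries. In it 24 of the 39 members (61.5%) rose in vil1-1 at an adjusted p under 0.05, where 889 of all genes (3.56%) did. No member fell at that threshold in the authors' deposited table, where 895 genes (3.58%) did. In either direction 1784 of its genes (7.13%) passed. Of the 39 members, 13 passed with a log2 fold change of at least 1 in the authors' deposited table, as did 1.08% of all its genes. The log2 fold change was above 0 for 37 members and for 44.9% of all genes in the authors' deposited table. Its median was 0.77 over the members and -0.05 over all genes.

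Members were also more abundant than most genes in the authors' deposited table, at a median of 42.3 CPM against 7.39 CPM. Of the 27 members with a mean log2 CPM of at least 4 in the authors' deposited table, 22 rose, against 7.32% of the 8413 genes at that level. Of the 12 members under that level, 2 rose. How many libraries, and of what depth, lie behind the authors' deposited table is not stated in the labels. Of the 24 members that rose in it, 9 had fewer than 12 counts, so their change could not be followed in single libraries.

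**Figure D2:**
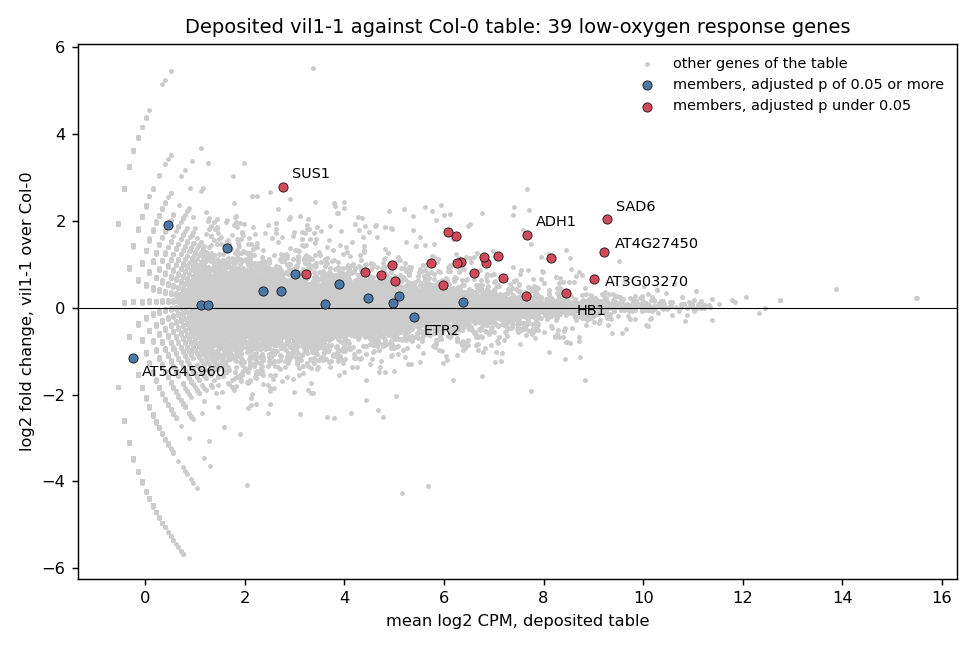
Log2 fold change between vil1-1 and Col-0 against mean log2 CPM in the authors' deposited table: grey points are other genes, red members have an adjusted p under 0.05 and blue members do not. All 24 red points lie above 0, and AT5G45960 and ETR2 are the blue points below it.

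Of the 5 fermentation genes, ADH1 and PDC1 rose in the authors' deposited table and the other 3 did not pass. ADH1, alcohol dehydrogenase, the last step to ethanol, lies on chromosome 1 from 28975255 to 28977417 on the plus strand. It had 6, 2 and 4 counts in Col-0 against 7, 9 and 7 in vil1-1. The means were 71.6 ± 47.1 and 147.4 ± 35.9 CPM (SD, n = 3), and the groups overlapped because Col-0 replicate 1 lay above vil1-1 replicate 3. ADH1 rose in the authors' deposited table by 1.66 on the log2 scale, at 204 CPM (adjusted p = 1.79e-76). ADH1 shares 61 bases with a gene on the other strand that had at most 1 count per library. PDC1, pyruvate decarboxylase, which supplies the acetaldehyde, had no count in Col-0 and 0, 1 and 1 in vil1-1. PDC1 rose by 1.06 at 81.5 CPM in the authors' deposited table (adjusted p = 1.81e-21). Its paralogue PDC2 was at a log2 fold change of 0.10 in the authors' deposited table (adjusted p = 0.746). AT4G17260, of the lactate/malate dehydrogenase family, was at 0.22 in the authors' deposited table (adjusted p = 0.569). ALAAT1, alanine aminotransferase, which makes alanine from pyruvate, had 1, 3 and 5 counts in Col-0 against 0, 1 and 2 in vil1-1. That overlap leaned to Col-0, and the authors' deposited table gives ALAAT1 a log2 fold change of 0.14 (adjusted p = 0.554).

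Of the genes of sugar supply, 1 of 3 rose. SUS1, sucrose synthase, which splits sucrose into UDP-glucose and fructose, had no counts in any library. It had the largest log2 fold change of the 24 members that rose in the authors' deposited table, 2.77, at a level of only 6.79 CPM (adjusted p = 3.84e-14). SUS4, its close copy, was at 0.77 and 8.01 CPM in the authors' deposited table (adjusted p = 0.0504), just outside the threshold. Reads of such similar copies may be shared between them, and how the authors treated those is not stated in the labels. PFK6, a phosphofructokinase, was at 0.09 in the authors' deposited table (adjusted p = 0.857).

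Of the 6 oxygen sensing genes and regulators, 5 rose, and log2 fold changes ran from 0.39 to 1.03 over the 6 in the authors' deposited table. PCO1 and PCO2 encode plant cysteine oxidases that are themselves induced by hypoxia. PCO1 had 6, 4 and 2 counts in Col-0 against 8, 8 and 1 in vil1-1, with vil1-1 replicate 3 the lowest of all 6 libraries. PCO2 had 3, 2 and 2 counts in Col-0 against 4, 2 and 5 in vil1-1. Both overlapped in the count files, while the authors' deposited table gives log2 fold changes of 0.68 for PCO1 (adjusted p = 6.56e-12) and 1.02 for PCO2 (adjusted p = 3.01e-15). HRA1, a trihelix factor that restrains the group VII factor RAP2.12, had 3, 1 and 2 counts in Col-0 against 4, 2 and 3 in vil1-1. HRA1 rose by 1.03 in the authors' deposited table (adjusted p = 1.55e-24).

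LBD41, a LOB domain protein, had 2, 2 and 3 counts in Col-0 against 6, 0 and 1 in vil1-1, so its vil1-1 libraries lay on both sides of Col-0. The authors' deposited table gives LBD41 a log2 fold change of 0.80 (adjusted p = 1.09e-13). HRE2, a group VII factor induced by hypoxia, had 2 counts in all, both in vil1-1 replicate 3, and rose by 0.77 at 9.37 CPM in the authors' deposited table (adjusted p = 0.026). HRE1, the other hypoxia-induced group VII factor, was not called in the authors' deposited table (0.39, adjusted p = 0.614). HRE1 overlaps a 40S ribosomal protein gene on the other strand over 124 bases.

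In the group of haemoglobin, stress and calcium genes, 4 of 5 rose in the authors' deposited table, with AT3G03270 at 0.66 (adjusted p = 1.43e-17). HB1, the class 1 haemoglobin, which removes nitric oxide under hypoxia, was the 1 member tested by edgeR whose direction differed between the sources. It had 16, 3 and 14 counts in Col-0 against 2, 11 and 6 in vil1-1, with means of 196.5 ± 142.3 and 120.1 ± 92.8 CPM (SD, n = 3). In each genotype the highest library was several times the lowest, the groups overlapped widely, and edgeR gave a log2 fold change of -0.60 (SE 0.48, adjusted p = 0.7). In the authors' deposited table HB1 lay the other way, at 351 CPM and a log2 fold change of 0.33 (adjusted p = 0.000414).

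RBOHD, the NADPH oxidase of stress signalling, had 7, 2 and 6 counts in Col-0 against 0, 5 and 7 in vil1-1. Its libraries overlapped, with means of 88.7 ± 56.7 CPM in Col-0 against 70.6 ± 61.3 CPM in vil1-1 (SD, n = 3). The authors' deposited table lay the other way, giving RBOHD a log2 fold change of 0.61 (adjusted p = 0.000466). CML38, a calmodulin-like protein, had counts only in vil1-1 replicates 2 and 3, with 1 and 2. CML38 rose by 0.74 in the authors' deposited table (adjusted p = 5.72e-05). SRO5 was at 1.37 and 3.12 CPM in the authors' deposited table (adjusted p = 0.0547), outside the threshold, and shares 905 bases with an aldehyde dehydrogenase gene on the other strand.

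The 2 ethylene genes had the lowest median log2 fold change of the roles, 0.02 in the authors' deposited table. ACO1, an ACC oxidase of ethylene synthesis, had 9, 4 and 7 counts in Col-0 against 2, 4 and 7 in vil1-1. Its libraries overlapped and leaned to Col-0, at means of 117.6 ± 62.5 CPM against 78.1 ± 34.1 CPM in vil1-1 (SD, n = 3). The authors' deposited table lay the other way, giving ACO1 a log2 fold change of 0.26 (adjusted p = 0.0305), the smallest among the 24. ETR2, an ethylene receptor, had 4, 2 and 6 counts in Col-0 against 5, 3 and 3 in vil1-1, and was at -0.22 in the authors' deposited table (adjusted p = 0.389). Among transport and lipid genes SAD6 alone rose, by 2.05 on the log2 scale at 616 CPM in the authors' deposited table (adjusted p = 2.05e-164). The aquaporin gene NIP2;1 was at 0.06 (adjusted p = 0.977) and the lipase-like gene AT5G45960 at -1.16 and 0.845 CPM (adjusted p = 0.75) in the authors' deposited table. Neither had a count in any library.

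The loci of unknown or loosely annotated function made up 15 of the 39, and 10 rose, the median log2 fold change being 1.02 in the authors' deposited table. AT4G10270, of the same wound-responsive family as AT4G33560, had 3, 5 and 1 counts in Col-0 against 5, 5 and 6 in vil1-1. Its CPM did not overlap, with means of 50.7 ± 31.2 and 100.9 ± 5.9 CPM (SD, n = 3). AT4G10270 rose by 1.15 at 285 CPM in the authors' deposited table (adjusted p = 3.46e-43), and it shares 377 bases with an antisense locus. AT1G33055 had 0, 2 and 0 counts in Col-0 against 2, 4 and 7 in vil1-1, again without overlap in CPM. AT1G33055 rose by 1.17 in the authors' deposited table (adjusted p = 1.72e-30), and 225 of its bases lie in AT1G33050 on the same strand. AT3G27220, a kelch repeat protein, had 17, 19 and 32 counts in Col-0 against 29, 21 and 25 in vil1-1. The groups overlapped, with 376.4 ± 108.0 and 479.5 ± 121.0 CPM (SD, n = 3), and edgeR gave 0.35 (SE 0.26, adjusted p = 0.664) where the authors' deposited table gives 0.52 (adjusted p = 0.000128).

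AT4G33560 and AT4G27450 had log2 fold changes of 1.65 (adjusted p = 2.02e-47) and 1.29 (adjusted p = 1.64e-67) in the authors' deposited table, close to their edgeR values of 1.67 and 1.41. AT1G19530 had 0, 0 and 1 counts in Col-0 against 1, 0 and 1 in vil1-1, and rose by 1.75 in the authors' deposited table (adjusted p = 4.55e-49). AT5G66985 had 0, 2 and 3 counts in Col-0 against 0, 2 and 0 in vil1-1, and rose by 1.18 in the authors' deposited table (adjusted p = 5.31e-34). In these few counts AT5G66985 leaned to Col-0. AT4G24110, with 0, 1 and 0 counts in Col-0 against 3, 1 and 4 in vil1-1, rose by 1.02 in the authors' deposited table (adjusted p = 3.46e-19). AT3G10020, with 0, 1 and 2 against 1, 1 and 2 counts, rose by 0.97 in the authors' deposited table (adjusted p = 2.9e-09). AT4G39675, with 0, 1 and 1 against 0, 1 and 0 counts, rose by 0.82 in the authors' deposited table (adjusted p = 4.01e-05). Of these last 3, AT4G24110 had most of its few counts in vil1-1 and AT4G39675 in Col-0. The other 5 of the 15, AT5G10040, AT2G17850, PHI-1, AT5G44730 and AT5G42200, did not pass, at 0.07 to 1.89 on the log2 scale in the authors' deposited table. AT5G10040, at 1.37 CPM in the authors' deposited table, lies wholly within AT5G10030.

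**Figure D3:**
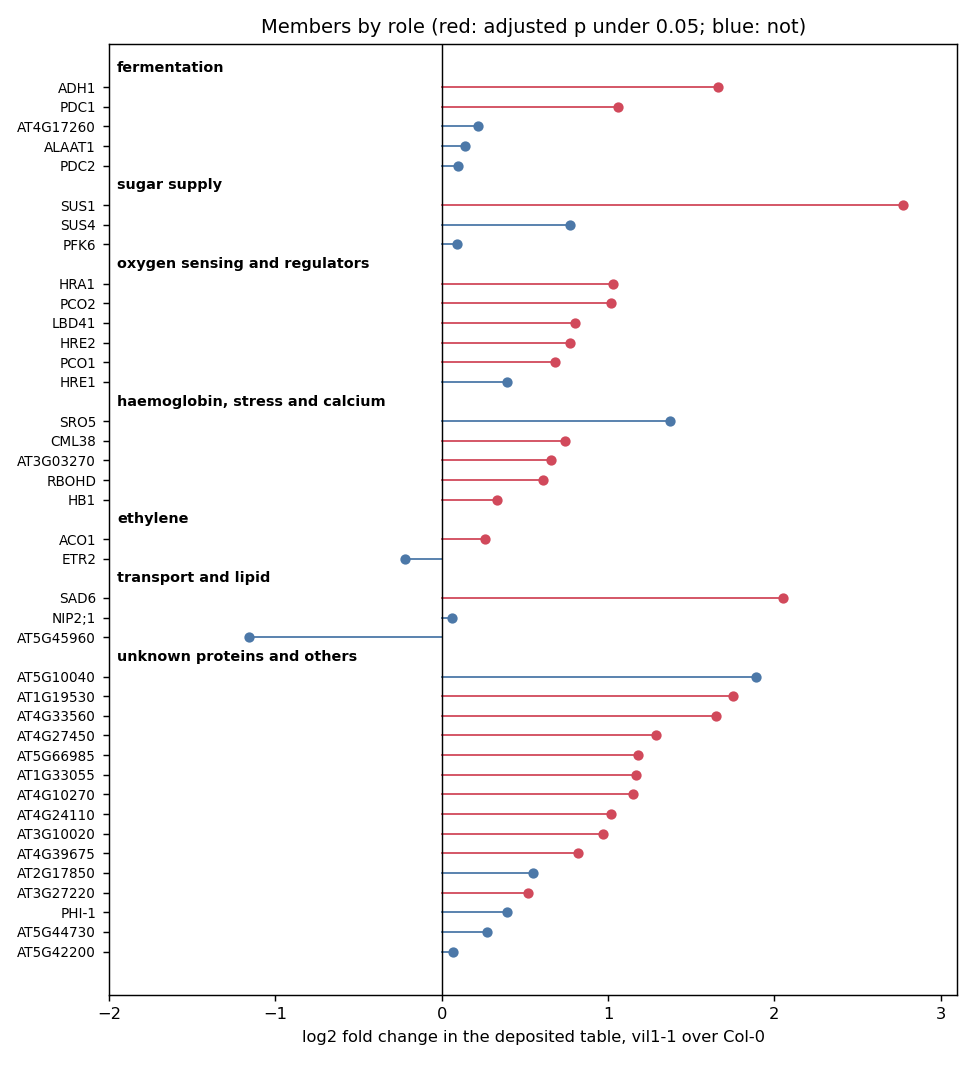
Log2 fold change between vil1-1 and Col-0 in the authors' deposited table for each of the 39 genes, grouped by role (red: adjusted p under 0.05; blue: not). SUS1 at 2.77 and SAD6 at 2.05 lie farthest to the right among red points, and ETR2 and AT5G45960 are the 2 left of 0.

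Summed over all 39 genes, the level was 17455.2, 13960.3 and 17675.1 CPM in Col-0, against 24617.9, 26712.1 and 25717.6 CPM in vil1-1. The sum was thus higher in every vil1-1 library, by 1.57-fold in the means, but it is mostly AT3G03270. Without that gene the sums were 2291.9, 1487.7 and 2075.8 CPM in Col-0, against 3261.1, 3364.3 and 3333.2 CPM in vil1-1, a 1.7-fold ratio of means. The groups were separate with and without it. Most of the remaining difference lay in AT4G27450, SAD6 and AT4G33560. With all 4 genes called by edgeR left out, the sums were 1657.5, 916.7 and 1440.7 CPM in Col-0, against 1726.5, 1743.0 and 1532.3 CPM in vil1-1. These sums overlapped, with Col-0 replicate 1 above vil1-1 replicate 3, and the ratio of means was 1.25-fold, so the separation of the sums rests on those 4 genes. This last sum was chosen after the data were seen. The 22 genes with fewer than 12 counts held 23 counts over the Col-0 libraries and 35 over the vil1-1 libraries. The 13 of them that did not pass in the authors' deposited table had at most 2 counts in any library.

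AT3G03270 differed in level between the sources more than any other of the 17 members with at least 12 counts. It made up 1.52%, 1.25% and 1.56% of all counts in the Col-0 libraries and 2.14%, 2.33% and 2.24% in vil1-1. Exact 95% binomial intervals, which cover counting error only, ran from 1.16% to 1.66% over the Col-0 libraries and from 2.01% to 2.47% over the vil1-1 libraries. It had rank 3 of all genes over the 6 libraries, at 18100 CPM, while the authors' deposited table lists it at 517 CPM and rank 279. The ratio of these levels, 35.1, was above that of 99.9% of the 3888 genes with at least 12 counts, whose median ratio was 1.07 and whose 5th to 95th percentiles ran from 0.333 to 7.8. The direction did not depend on the source, with a log2 fold change of 0.66 in both edgeR and the authors' deposited table. Among the other members the ratio ran from 0.259 for AT4G10270 to 6.7 for AT3G27220. Per kilobase of exon the order of levels in the authors' deposited table began with AT4G10270 (597 CPM per kb), AT4G27450 (433), SAD6 (414), HB1 (355) and AT3G03270 (271), and ended with AT5G45960 (0.581).

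**Figure D4:**
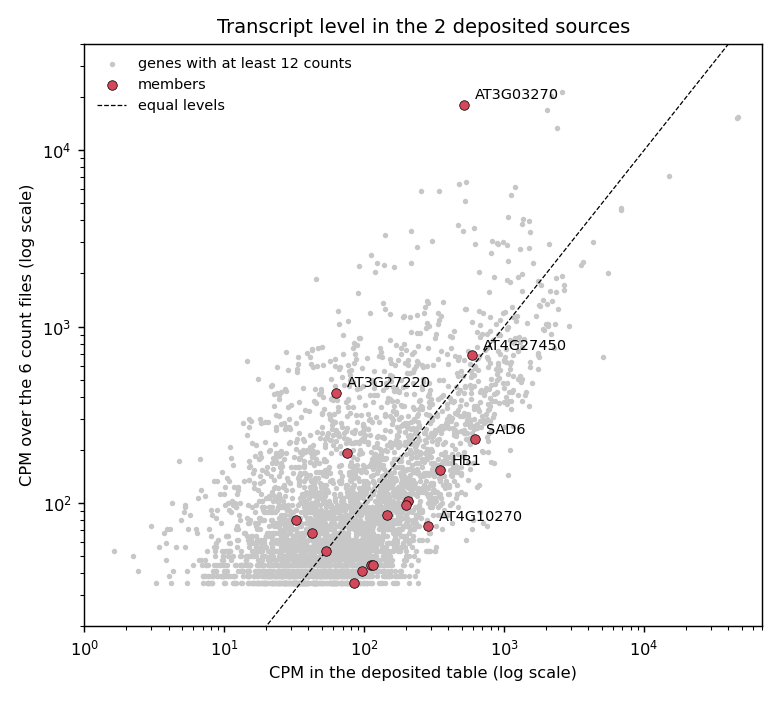
CPM over the 6 count files against CPM in the authors' deposited table on log axes, for genes with at least 12 counts: grey points are all such genes, red points the 17 members, and the dashed line marks equal levels. AT3G03270 stands far above the line, at 18100 against 517 CPM, and AT4G10270 is below it, at 73.6 against 285 CPM.

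Outside the members, 7 of 52 genes of oxygen sensing, member paralogues and cytosolic glycolysis (13.5%) passed in either direction in the authors' deposited table, against 7.13% of all its genes. Of 14 genes of oxygen sensing and the N-degron pathway outside the members, only RAP2.3, a constitutive group VII factor, passed in the authors' deposited table (log2 fold change 0.77, 116 CPM, adjusted p = 6.59e-14). Its counts were 6, 11 and 5 in Col-0 and 11, 8 and 15 in vil1-1, which overlapped in CPM, and the list's median was 0.16 in the authors' deposited table. In the VIN3-like family, VIN3 rose by 1.81 at 2.43 CPM in the authors' deposited table (adjusted p = 0.0313). Among 21 paralogues of the members, 1 rose and 2 fell in the authors' deposited table. HB2, the class 2 haemoglobin, rose by 0.42 (adjusted p = 0.0027) and the sucrose synthase gene SUS6 was lower, at -0.48 (adjusted p = 0.0438), in the authors' deposited table. The paralogues' median was 0.04 in the authors' deposited table.

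Of 17 genes of cytosolic glycolysis, the aldolase gene FBA6 rose by 0.56 in the authors' deposited table (adjusted p = 3.42e-10). UGP2 (-0.87, adjusted p = 1.33e-05) and GAPC1 (-0.25, adjusted p = 0.00276) fell in the authors' deposited table. The list's median was -0.02 in the authors' deposited table. edgeR tested 8 of them and called FBA6 alone, at 1.64 (SE 0.46, adjusted p = 0.0217). FBA6 had 2, 8 and 3 counts in Col-0 against 12, 10 and 14 in vil1-1. Like SAD6 and AT4G33560, it met the default filter only through its vil1-1 libraries, so its entry into the test depended on the difference tested. None of 6 mitochondrial stress genes passed in the authors' deposited table, where UPOX was at 0.23 and NAC013 at 0.38. Of 8 early genes of touch and wounding, JAZ1 fell (-0.46, adjusted p = 0.0172) and none rose in the authors' deposited table. Over all its genes 7.13% passed in either direction. For lists this small the counts of mitochondrial stress and of touch and wounding genes are near that share.

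A further list moved with the members. All 11 genes of the seed maturation programme rose in the authors' deposited table, and their median log2 fold change was 1.43. LEA4-5 was at 2.74 (adjusted p = 8.78e-183), LEA7 at 2.23 (adjusted p = 3.83e-132), RAB18 at 1.58 (adjusted p = 2.6e-42) and PER1 at 1.91 (adjusted p = 6.47e-27) in the authors' deposited table. Their summed level was 240.4 to 491.1 CPM over the Col-0 libraries and 1058.4 to 1722.7 CPM over those of vil1-1. These genes are typical of the late embryo and dry seed, and their part in the members' result was not tested. Among the 8 seedling markers, 2 rose and 2 fell in the authors' deposited table. ICL, isocitrate lyase of oil mobilisation, rose by 0.42 in the authors' deposited table (adjusted p = 4.05e-16) and by 0.60 in edgeR (SE 0.12, adjusted p = 0.000358), with all vil1-1 libraries above Col-0. MLS, malate synthase of the same pathway, rose by 0.17 in the authors' deposited table (adjusted p = 0.0385), while edgeR gave -0.06 (SE 0.15, adjusted p = 0.909). The root hair markers PRP3 and COBL9 fell in the authors' deposited table, by 1.08 (adjusted p = 1.62e-05) and 1.27 (adjusted p = 0.000132). Seed coat markers were at 75.1 to 123.9 CPM over the Col-0 libraries and 60.8 to 110.6 CPM over those of vil1-1, with 3 of 6 at 0 counts. Endosperm markers were at 77.5 to 135.2 CPM over the Col-0 libraries and 0 to 162.1 CPM over those of vil1-1, with 4 of 5 at 0 counts. None of the 5 seed coat and 4 endosperm markers listed in the authors' deposited table passed in either direction, against 7.13% of all its genes. In so few genes, none passing is close to that share. Most of these markers lay near 1 CPM there, such as BAN at 0.74 and ZOU at 0.687, where a change could hardly pass.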

How the data were processed

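RNA from whole 1-day-old seedlings of Col-0 and vil1-1 was sequenced in 3 libraries each, called biological replicates in the series design. Per the submitters' processing notes, which give neither versions nor order, Bowtie2, featureCounts and edgeR were used with TAIR10. Each deposited file gives raw counts of 1 library by gene, without normalization. Per gene, the authors' deposited table lists a p-value, an F score, the log2 fold change and the mean level in log2 CPM. The kit, the strand setting and the handling of multi-mapping reads are not stated there, so reads of overlapping, antisense or near-identical genes cannot be told apart.

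Genotypes were compared in R 4.3.3 with the quasi-likelihood F test of edgeR 4.0.16 (limma 3.58.1). All 6 libraries entered, scaled by TMM, after edgeR's default filter on low counts, in a model of genotype alone. Benjamini-Hochberg adjustment ran over all genes tested, with a threshold of 0.05. edgeR reports no SE for this test. The SE printed with its log2 fold changes is their absolute size divided by the square root of F, an approximation. The code was tested on simulated data. CPM are counts scaled to 1000000 per library, without TMM factors. DESeq2 1.42.0, limma-voom, other scalings, other filters, a replicate block and leaving out each library were alternatives. Promoters were read from RefSeq's TAIR10.1 genome. Coordinates are from its annotation. The build the authors used is named TAIR10, and no coordinates of theirs were used.

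The members, roles, lists and tests were chosen with earlier results of these data known. Values in every library are given for members with at least 12 counts or called in either source. From each list up to 4 called genes are named by smallest p in the authors' deposited table, or up to 2 of the most abundant if none was called. A called gene of the paralogue list is not reported here.

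Whether libraries of a genotype differed beyond sampling noise was checked by chi-square tests over genes, at 6 minimums of counts per pair. Col-0 replicates 1 and 2 were the closest pair. The first minimum tried, 30 counts, gave p = 0.0526 for them (chi-square per degree of freedom 1.09). The other 5 minimums were added after that value was seen, and their chi-square tests gave p = 2.71e-05 to 0.0265. Every other pair differed at every minimum, with a chi-square p of at most 3.56e-09. The pair was kept as 2 samples, and each was also left out in turn: edgeR then called 28 genes either way, with 4 members called without Col-0 replicate 1 and 3 without replicate 2.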

Additional observations from a re-analysis of the deposited data

How the results depend on the processing

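edgeR's count of 35 genes called became 21 with no filter and 8 with DESeq2, and ran from 19 (without vil1-1 replicate 2) to 36 when a library was left out. Its count of 4 members became 2 with no filter and 2 with DESeq2, and ran from 3 to 4 with a library left out. AT3G03270 and AT4G27450 passed in every setting run. SAD6 lost its call with no filter (1.40, adjusted p = 0.0705) and in DESeq2 (1.45, adjusted p = 0.173), and AT4G33560 likewise (1.62, adjusted p = 0.0521, and 1.64, adjusted p = 0.173), beside the edgeR leave-out values given with each gene. The cause was not tested. With log2 fold changes under 1 in size left out, 13 rather than 24 members passed in the authors' deposited table. The log2 ratio of the members' summed CPM was 0.55 to 0.71 with a library left out and 0.77 without AT3G03270, and fell to 0.32 without the 4 members called by edgeR, a setting chosen after the data were seen. No result changed direction. HB1's edgeR log2 fold change ran from -1.33 to -0.10 with a library left out, never called.

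With the replicate number as a block, edgeR called 35 genes and 4 members. Correlations of same-numbered libraries' deviations were 0.099, -0.018 and -0.003, and Col-0 replicate 3 correlated best with vil1-1 replicate 2 (0.133). At this depth counting noise could hide a pairing, so these correlations do not decide whether the numbers pair the samples.

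Depth limits most members: 33 of 39 were too scarce for edgeR's filter, and at 1 count a change cannot be seen in single libraries.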
